A study of Homo sapiens with 4 samples.

Results

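The transcripts of 10 genes of the YAP/TEAD pathway (CCN1, CCN2, ANKRD1, AMOTL2, AJUBA, LATS2, YAP1, WWTR1, AXL and TEAD4) were followed in U2OS cells, an established human osteosarcoma line, after knockdown of PURB. The genes were taken by symbol from 39519 gene symbols in the deposited table, and all 10 were found and passed the filter on low levels. The sh-PURB cells carried an inducible short hairpin RNA against PURB, a purine-rich element binding protein, and received doxycycline at 5 µg/ml for 72 h (n = 2 libraries). The sh-NC control cells received DMSO and were taken at the same 72 h (n = 2 libraries). The hairpin and doxycycline therefore cannot be told apart, and the labels do not say how many hairpins were used. Nor do they state whether separate cultures were used, so each p-value reflects the spread among these 4 libraries, which may be technical.

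The Hippo pathway restrains growth through a kinase cascade in which the LATS kinases phosphorylate the coactivators YAP (gene YAP1) and TAZ (gene WWTR1) and keep them out of the nucleus. Unphosphorylated YAP and TAZ bind TEAD factors at enhancers and promoters, often beside AP-1, and switch on genes such as CCN1, CCN2 and ANKRD1. Some targets, among them LATS2 and AMOTL2, encode inhibitors of YAP and so close a feedback loop. Activity of the pathway is set largely by phosphorylation and by where YAP and TAZ sit in the cell, which RNA levels do not measure.

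Values were in TPM, which gives each transcript's length-corrected share of its library, from total RNA depleted of ribosomal RNA, so the read depth behind them is unknown. PURB mRNA stood at 2.58 ± 0.160 TPM in sh-PURB libraries and 5.92 ± 0.896 TPM in sh-NC libraries (mean ± SD, n = 2 each), 43.5% of control. Its limma adjusted p was 0.102 in the fit of all tested genes and 0.0313 in a fit of protein-coding genes only. Of the markers of bone and mesenchymal cells, VIM (298 to 342 TPM) and SPARC (220 to 262 TPM) were high and RUNX2 was at 1.92 to 3.92 TPM, while ALPL and COL1A2 did not exceed 0.509 TPM in any library. COL1A1 was at 9.53 to 39.7 TPM. Epithelial KRT8 (86.2 to 115 TPM) and KRT18 (84.2 to 114 TPM) were also present, EPCAM was at 1.79 to 2.44 TPM and the blood marker PTPRC at 0.651 to 1.63 TPM. CDH1, CD3E and the 3 endothelial markers stayed at or below 0.563 TPM. Some markers differed between the groups without overlap, as 18.6% (sh-PURB above) and 29.3% (sh-PURB below) of all tested genes did. CDH11 was at 4.59 and 5.18 TPM in sh-PURB against 7.24 and 8.84 TPM in sh-NC, the sh-PURB values of VIM and KRT8 lay below, and those of KRT18 above, every control value. Their part in the results was not tested.

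Upstream sequence was taken from RefSeq start sites (GRCh38.p14) for 8 of the 10 genes, in windows of 250 bases before each start, and 4 windows are printed. CCN2 and ANKRD1 are shown because they are textbook TEAD targets whose differences between the groups were small beside their spread. AJUBA and WWTR1 are shown because they had the largest differences of the 10. For each, the start printed is the one that held matches to the repeat marked here, and its other start held none. The second AMOTL2 window, which held the most such matches, is not printed. In CCN2 (chr6:131951373-131951622, minus strand) and ANKRD1 (chr10:90921088-90921337, minus strand) the capitals mark the TEAD motif GGAATG. In AJUBA (first start, chr14:22982552-22982801, minus strand) and WWTR1 (second start, chr3:149658026-149658275, minus strand) they mark GGNGGNGGN on either strand, called the purine repeat here. The pattern was chosen since PUR proteins are known to bind purine-rich GGN repeats. It takes any base at N, so a match need not be purine throughout. All 3 AJUBA matches hold a C on their G-rich strand, and in WWTR1 only those in the run of GGA are purine throughout.
CCN2: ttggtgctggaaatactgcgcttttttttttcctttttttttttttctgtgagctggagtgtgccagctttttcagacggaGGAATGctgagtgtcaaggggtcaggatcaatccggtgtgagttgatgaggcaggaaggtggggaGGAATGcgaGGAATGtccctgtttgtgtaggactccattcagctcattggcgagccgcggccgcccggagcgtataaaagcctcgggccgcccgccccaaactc
ANKRD1: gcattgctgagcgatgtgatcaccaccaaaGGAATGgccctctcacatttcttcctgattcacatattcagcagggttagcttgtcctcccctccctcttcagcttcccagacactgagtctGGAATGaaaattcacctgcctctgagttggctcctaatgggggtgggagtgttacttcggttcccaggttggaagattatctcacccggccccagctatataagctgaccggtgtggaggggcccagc
AJUBA: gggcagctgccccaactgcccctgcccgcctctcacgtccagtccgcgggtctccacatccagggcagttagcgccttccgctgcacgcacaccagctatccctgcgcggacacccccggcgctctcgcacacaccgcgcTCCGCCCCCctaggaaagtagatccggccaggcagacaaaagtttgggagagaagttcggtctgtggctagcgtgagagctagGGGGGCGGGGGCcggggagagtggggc
WWTR1: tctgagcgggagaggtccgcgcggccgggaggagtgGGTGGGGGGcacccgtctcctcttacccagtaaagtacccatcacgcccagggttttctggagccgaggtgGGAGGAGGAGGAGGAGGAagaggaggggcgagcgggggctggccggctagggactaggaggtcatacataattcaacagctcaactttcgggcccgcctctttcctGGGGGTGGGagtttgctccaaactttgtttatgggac

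The TEAD motif, searched on both strands, was in 11.9% of 34943 promoter windows of this length, and 0.942% held 2 or more matches. CCN2 held 3 matches, at 90 to 95, 99 to 104 and 164 to 169 bases before the start, and ANKRD1 held 2, with an AP-1 motif (TGANTCA, in 6.59% of windows) 189 to 195 bases before the start. YAP1 and 1 of the 2 start sites each of AMOTL2, AJUBA and AXL had 1 match, and neither LATS2 nor either WWTR1 window had any. The CArG box was in none of the members' windows (1.16% of all windows). The purine repeat was in 49.0% of all windows, and 18.9% held 3 or more matches. The second AMOTL2 window held 7, the second WWTR1 window 6 and the first AJUBA window 3, overlapping matches included. The first AXL window and LATS2 held 2 each, ANKRD1, YAP1 and the first AMOTL2 window 1 each, and the other 4 windows none. In WWTR1, 4 of the matches lay in 1 run of GGA repeats 126 to 143 bases before the start. These matches describe letters only, and no binding was measured here.

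**Figure D1:**
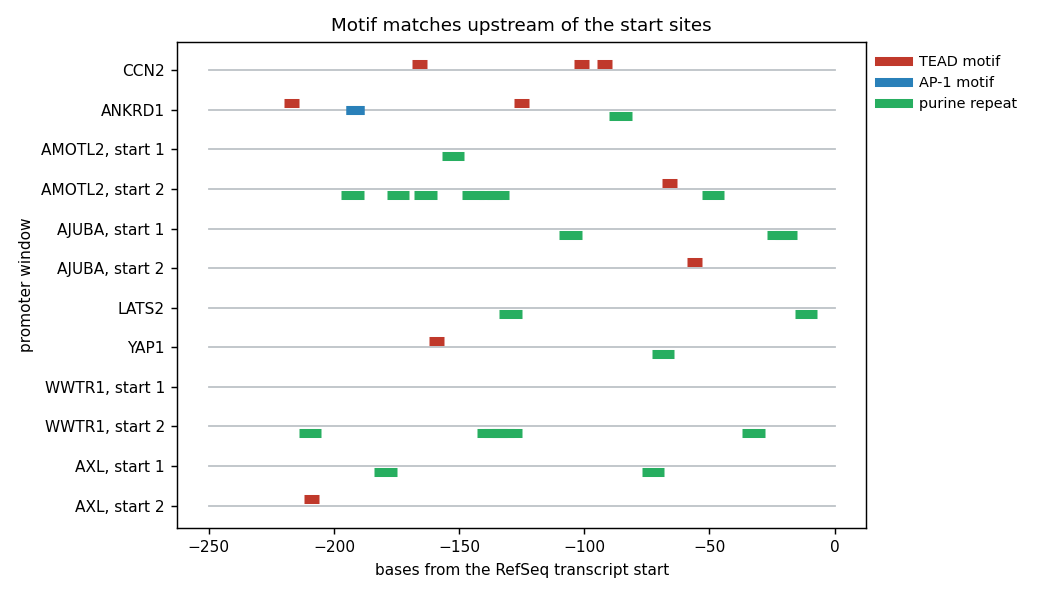
Places of motif matches in the 12 promoter windows of 8 genes; the x axis is the distance in bases from the RefSeq start and each line is 1 window. CCN2 shows 3 TEAD matches and ANKRD1 shows 2, with an AP-1 match between them, while the second WWTR1 window shows purine repeats and no TEAD match. ANKRD1 shows 1 purine repeat as well.

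None of the 10 YAP/TEAD genes passed limma's adjusted threshold of 0.05 in the fit of all 14269 tested genes, which 41 genes passed (0.287%; 12 higher and 29 lower). At an unadjusted limma p under 0.05, 3 of the 10 were higher (AJUBA, AXL and CCN1) and 1 was lower (WWTR1), where 5.77% of all tested genes were higher and 9.53% lower. For 6 of the 10, both sh-PURB values exceeded both sh-NC values (18.6% of all tested genes), and for 2 they were lower than both (29.3% of all tested genes). The 10 genes were chosen with earlier results of these data known, so these counts are a description and no independent test. In a fit of protein-coding genes only, after rescaling them to equal sums, limma called AJUBA higher and WWTR1 lower. Of those genes 1.33% were called higher and 2.15% lower. This fit called 415 genes, more than any other setting. Its prior degrees of freedom, the weight limma gives to variance shared over genes, were 5.75, against 2.92 with all genes. The SE of WWTR1 was 0.15 there, against 0.13 with all genes. TPM recomputed without the most abundant and mitochondrial genes gave 98 genes called higher and 76 lower, and moved the median log2 difference of all genes to 0.06, against -0.06 as deposited.

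**Figure D2:**
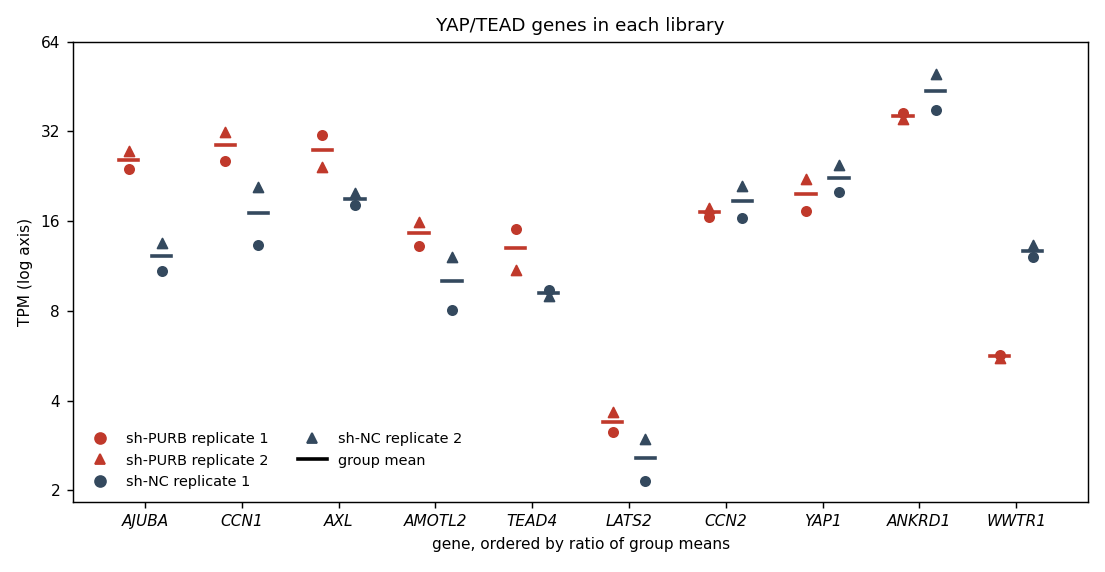
TPM of the 10 genes in each library on a log axis, with sh-PURB in red left of sh-NC in dark grey, replicate 1 as circles, replicate 2 as triangles and bars for group means. AJUBA and WWTR1 show the widest gaps, in opposite directions (ratios of 2.11 and 0.442), and the groups overlap for CCN2 and YAP1.

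The coactivators came first. WWTR1, which encodes TAZ (chr3:149517235-149736714, minus strand, GRCh38), was at 5.71 and 5.55 TPM in sh-PURB libraries, against 12.2 and 13.3 TPM in sh-NC libraries. Both sh-PURB libraries were at less than 0.5 of either control, with very little spread inside the sh-PURB group. The ratio of means was 0.442 and the log2(TPM + 1) difference was -1.05 (SE 0.13), with a limma adjusted p of 0.0625 over all genes. Among protein-coding genes alone WWTR1 fell by 1.00 on the log2 scale (limma adjusted p = 0.0135). Over the settings with all 4 libraries its limma adjusted p ran from 0.0135 to 0.185. WWTR1-AS1, an antisense gene sharing 795 exonic bases with WWTR1 (9.45% of its exonic bases), was at 0.365 and 0.443 TPM in sh-PURB and 0.441 and 0.392 TPM in sh-NC. Whether counting used strand is not stated in the labels, so the reads of both strands cannot be told apart. The same holds for unnamed antisense genes that share 8.34% of the exonic bases of CCN2, 9.97% of those of YAP1 and 1.30% of those of AXL. In such bulk RNA, fewer cells that express a gene and less of its RNA per cell cannot be told apart either.

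YAP1, which encodes YAP (chr11:102110461-102233423, plus strand), was at 17.3 and 22.2 TPM in sh-PURB libraries and 20.1 and 24.6 TPM in sh-NC libraries. The groups overlapped, and the log2 difference of -0.18 had a 95% interval of -0.63 to 0.28 (limma adjusted p = 0.701). TAZ transcripts therefore made up 24.8% and 20.0% of the YAP1 plus WWTR1 sum in sh-PURB libraries, against 37.7% and 35.1% in sh-NC libraries. The sum itself was 25.4 ± 3.36 TPM in sh-PURB and 35.1 ± 4.03 TPM in sh-NC (n = 2 each). Such shares inside a library are not moved by the scaling of TPM. An exact two-sided permutation test of 2 libraries against 2 cannot go below p = 0.333, and it gave that value for the TAZ share.

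TEAD factors are the DNA-binding partners of YAP and TAZ. TEAD4 (chr12:2959330-3040673, plus strand) was at 15.1 and 11.0 TPM in sh-PURB libraries and 9.37 and 8.96 TPM in sh-NC libraries. Both sh-PURB values lay above both controls but were far apart, and the log2 difference of 0.45 (SE 0.18) did not pass (limma adjusted p = 0.346). The other 3 TEAD genes lay below both controls in both sh-PURB libraries, as 29.3% of all tested genes did. For TEAD1 and TEAD3 this was narrow (limma adjusted p of 0.525 and 0.772). TEAD1 averaged 20.0 TPM in sh-PURB and 24.8 TPM in sh-NC, and TEAD2 was at 7.62 and 9.84 TPM in sh-PURB against 14.9 and 12.7 TPM in sh-NC (ratio 0.631, limma adjusted p = 0.213). TEAD3 was the lowest of the family, at 2.89 TPM in sh-PURB and 3.25 TPM in sh-NC. TEAD4 made up 33.9% and 24.4% of the TEAD sum in sh-PURB libraries, against 19.4% and 16.7% in sh-NC libraries, and TEAD1 remained the most abundant TEAD transcript in all 4 libraries. The TEAD sum was 44.7 ± 0.274 TPM in sh-PURB and 51.0 ± 3.71 TPM in sh-NC. VGLL4, which competes with YAP for TEAD, was at 8.31 TPM in sh-PURB and 10.4 TPM in sh-NC (limma adjusted p = 0.415).

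**Figure D3:**
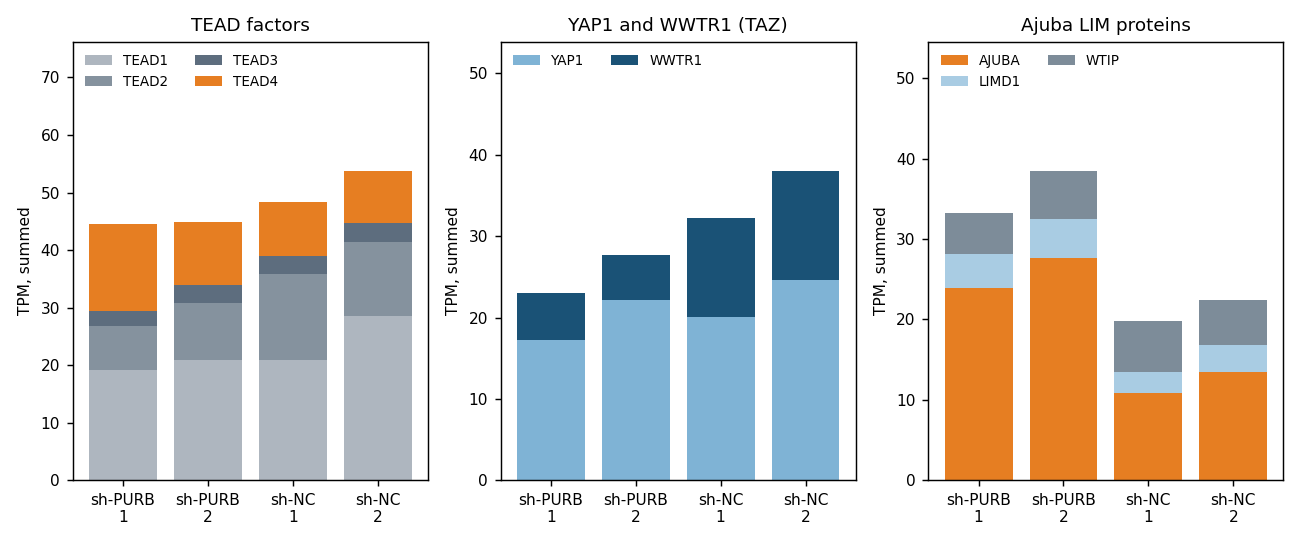
Stacked TPM of the TEAD factors, of YAP1 with WWTR1 and of the Ajuba LIM proteins in each library, sh-PURB left of sh-NC. The WWTR1 part is smaller in both sh-PURB libraries (5.71 and 5.55 TPM), and the TEAD4 and AJUBA parts are larger.

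The log2 differences of the canonical targets did not all have the same sign, and no target was tested against another. CCN1, a secreted matricellular protein also known as CYR61 (chr1:85580761-85583962, plus strand), was at 25.6 and 31.9 TPM in sh-PURB libraries and 13.3 and 20.8 TPM in sh-NC libraries. The groups did not overlap, but the controls differed widely from each other, and the log2 difference of 0.74 (SE 0.24) did not pass (limma adjusted p = 0.258). CCN2, its relative also known as CTGF (chr6:131948176-131951373, minus strand), was at 16.5 and 17.8 TPM in sh-PURB and 16.5 and 21.0 TPM in sh-NC. The groups overlapped, and the log2 difference of -0.11 had a 95% interval of -0.52 to 0.29 (limma adjusted p = 0.788). Its sign turned with recomputed TPM (0.03) and when sh-NC replicate 2 was left out (0.05).

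Because both CCN genes were read in the same libraries, their ratio is free of scaling. CCN1 over CCN2 was 1.55 and 1.79 in sh-PURB libraries, against 0.808 and 0.988 in sh-NC libraries. CCN1 was thus the more abundant of the pair in both sh-PURB libraries and CCN2 in both sh-NC libraries. Among the other family members, CCN4 was at 0.544 and 0.547 TPM in sh-PURB and 1.96 and 2.16 TPM in sh-NC. It was at 26.5% of control, did not pass in the fit of all genes (limma adjusted p = 0.130) and passed only in the fit of protein-coding genes (0.0340). CCN3 averaged 7.65 TPM in sh-PURB and 5.67 TPM in sh-NC, CCN5 3.13 TPM in sh-PURB and 1.86 TPM in sh-NC with overlapping groups, and CCN6 was listed at 0 throughout.

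ANKRD1, a muscle ankyrin repeat protein and a standard reporter of YAP activity (chr10:90912096-90921276, minus strand), was the most abundant of the 10 genes in both groups. It was at 36.8 and 35.1 TPM in sh-PURB libraries and 37.7 and 49.8 TPM in sh-NC libraries. Both sh-PURB values were below both controls, the nearest by under 1 TPM, and the log2 difference of -0.26 had a 95% interval of -0.67 to 0.15 (limma adjusted p = 0.507). CCN1 over ANKRD1 was 0.695 and 0.908 in sh-PURB, against 0.353 and 0.418 in sh-NC. The sister gene ANKRD23 averaged 1.59 TPM in sh-PURB and 1.97 TPM in sh-NC, and ANKRD2 did not reach 1 TPM in any library.

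AXL, a receptor tyrosine kinase of the TAM family that binds the ligand GAS6 (chr19:41219203-41261766, plus strand), was at 31.2 and 24.2 TPM in sh-PURB libraries and 18.1 and 19.9 TPM in sh-NC libraries. The groups did not overlap, and the log2 difference was 0.51 (SE 0.16, limma adjusted p = 0.242). AXL was the most abundant TAM receptor in each library, with 74.7% and 70.2% of the receptor sum in sh-PURB and 62.3% and 65.1% in sh-NC. TYRO3 averaged 7.48 TPM in sh-PURB and 8.28 TPM in sh-NC, and MERTK 2.96 TPM in sh-PURB and 2.53 TPM in sh-NC. Of the ligands, GAS6 averaged 6.80 TPM in sh-PURB and 5.49 TPM in sh-NC with overlapping groups, and PROS1 10.4 TPM in sh-PURB and 9.53 TPM in sh-NC. Each of these 4 genes had a limma adjusted p above that of AXL, between 0.696 and 0.727.

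Regulators that act on LATS or YAP were next. AJUBA, a LIM-domain protein that binds LATS kinases and restrains them (chr14:22971174-22982642, minus strand), was at 23.9 and 27.6 TPM in sh-PURB libraries and 10.9 and 13.5 TPM in sh-NC libraries. Both sh-PURB values were well above both controls. The ratio of means was 2.11 and the log2 difference 1.02 (SE 0.16), with a limma adjusted p of 0.0831 over all genes. Among protein-coding genes alone AJUBA rose by 1.07 on the log2 scale (limma adjusted p = 0.0120), and with recomputed TPM it also passed (0.0456). Over the settings with all 4 libraries its limma adjusted p ran from 0.0120 to 0.203. Of its relatives, LIMD1 was at 4.28 and 4.85 TPM in sh-PURB and 2.63 and 3.27 TPM in sh-NC (limma adjusted p = 0.290), while WTIP overlapped between the groups, at 5.16 and 5.95 TPM in sh-PURB and 6.29 and 5.61 TPM in sh-NC. AJUBA made up 71.7% and 71.9% of the sum of the 3 in sh-PURB, against 55.0% and 60.3% in sh-NC.

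AMOTL2, an angiomotin-like protein that holds YAP at junctions (chr3:134355874-134375479, minus strand), was at 13.2 and 15.9 TPM in sh-PURB libraries and 8.05 and 12.1 TPM in sh-NC libraries. The groups were close to touching, and the log2 difference of 0.51 (SE 0.22) did not pass (limma adjusted p = 0.368). Its relative AMOT was at 3.48 and 6.76 TPM in sh-PURB and 2.26 and 2.46 TPM in sh-NC (limma adjusted p = 0.306), and AMOTL1 averaged 13.6 TPM in sh-PURB and 14.0 TPM in sh-NC. The ratio of AMOTL2 to AMOTL1 was 1.07 in each sh-PURB library, against 0.644 and 0.780 in sh-NC.

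LATS2, the Hippo kinase that is itself a YAP target (chr13:20973032-21061547, minus strand), was the lowest of the 10 genes, at 3.14 and 3.67 TPM in sh-PURB libraries and 2.14 and 2.99 TPM in sh-NC libraries. The log2 difference of 0.31 had a 95% interval of -0.21 to 0.83 (limma adjusted p = 0.535). LATS1 averaged 4.23 TPM in sh-PURB and 3.90 TPM in sh-NC, with overlapping groups. The kinases that activate LATS, STK3 and STK4, averaged 16.1 and 10.7 TPM in sh-PURB and 15.2 and 10.5 TPM in sh-NC (limma adjusted p of 0.905 and 0.966). NF2, the merlin tumour suppressor upstream of them, averaged 29.3 TPM in sh-PURB and 25.4 TPM in sh-NC with overlapping groups (limma adjusted p = 0.625).

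**Figure D4:**
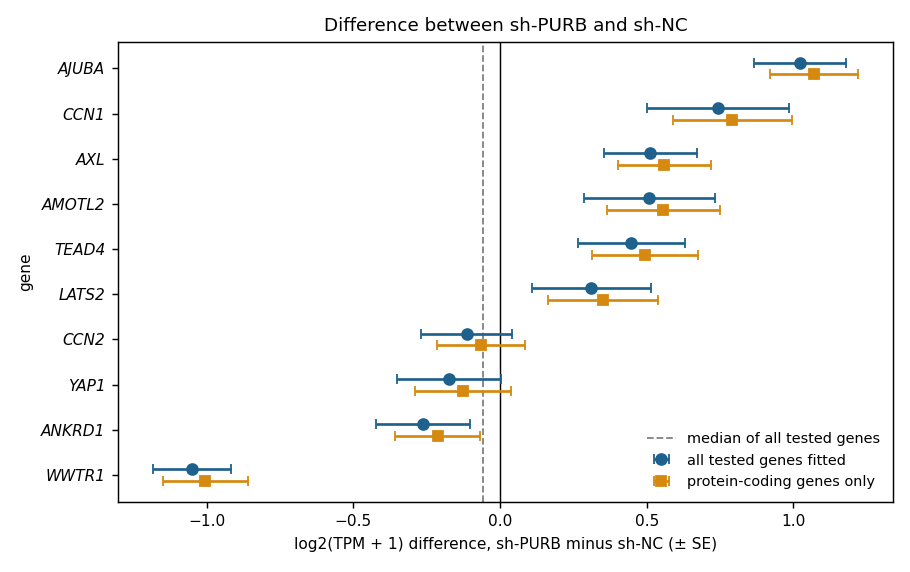
Difference in log2(TPM + 1), sh-PURB minus sh-NC, with SE, for the 10 genes; circles are from the fit of all tested genes and squares from protein-coding genes alone, and the dashed line is the median of all tested genes (-0.06). AJUBA (1.02) and WWTR1 (-1.05) lie at the ends, and CCN2, YAP1 and ANKRD1 lie within 0.3 of 0.

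AJUBA and WWTR1, the pair with the largest differences of opposite sign, were picked for that difference, so their ratio is a description with no test. AJUBA over WWTR1 was 4.18 and 4.98 in sh-PURB libraries, against 0.895 and 1.01 in sh-NC libraries, a ratio of means of 4.80, which scaling of a library does not move. Relative to the median of all genes, AJUBA stood at 1.08 and WWTR1 at -0.99, and with recomputed TPM at 1.15 and -1.04. In the same way CCN1 stood at 0.80 as deposited and 0.85 recomputed, and CCN2 at -0.06 and -0.03. When 1 library at a time was left out, the AJUBA difference stayed between 0.88 and 1.17 and that of WWTR1 between -1.11 and -0.99, while that of CCN1 ran from 0.44 to 1.05. Those of AXL ran from 0.34 to 0.69, AMOTL2 from 0.24 to 0.78, TEAD4 from 0.23 to 0.66 and LATS2 from 0.14 to 0.48. The negative differences ran from -0.46 to -0.07 for ANKRD1 and from -0.35 to -0.0033 for YAP1. These fits have 1 residual degree of freedom and leave 1 library in a group, so only the differences are given here.

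The order of the 10 genes by level differed between the groups. In sh-PURB libraries ANKRD1 was followed by CCN1, AXL and AJUBA (28.7, 27.7 and 25.7 TPM), whose ranges overlapped from each to the next, then by YAP1 and CCN2, by AMOTL2 and TEAD4, and last by WWTR1 and LATS2, which were apart from their neighbours. In sh-NC libraries ANKRD1 (43.7 TPM) stood apart at the top. YAP1 (22.4 TPM) came next, above AXL in both libraries but overlapping the ranges of CCN2 and CCN1, and from AXL through CCN2, CCN1, WWTR1, AJUBA and AMOTL2 to TEAD4 (19.0 to 9.17 TPM) each range overlapped the next. WWTR1 was thus rank 9 of 10 in sh-PURB and rank 6 in sh-NC, and AJUBA rank 4 in sh-PURB and rank 7 in sh-NC. In the controls 9 of the 10 genes were higher in replicate 2 than in replicate 1, where 60.5% of all tested genes were. In sh-PURB 6 of the 10 were, where 61.0% of all tested genes were, and the part of this library difference in the results was not tested.

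A wider signature of 22 YAP/TAZ targets in tumours, which holds 6 of the 10 genes, was also read. This list, too, was chosen with earlier results of these data known. Of 18 members tested, 11 lay above 0 and 7 below, with a median log2 difference of 0.30, where 41.6% of all tested genes lay above 0 and their median was -0.06. Recomputed TPM gave the signature a median of 0.47. Leaving out sh-PURB replicate 2 gave 0.12, and leaving out sh-NC replicate 1 gave 0.18. No member was called over all genes by limma, and by unadjusted p (under 0.05) 6 were higher and 1 was lower, against 5.77% and 9.53% of all tested genes. The 12 tested members outside the 10 genes, a subset taken after seeing the data, had a median of 0.29 with 7 above 0, but this median was 0.06 with no filter, -0.02 when sh-PURB replicate 2 was left out and 0.09 when sh-NC replicate 1 was. GADD45A, a stress-induced growth arrest gene that p53 also controls, was at 18.7 and 22.7 TPM in sh-PURB and 10.9 and 12.3 TPM in sh-NC. It passed only in the fit of protein-coding genes (limma adjusted p = 0.0283). CRIM1, a transmembrane BMP antagonist, averaged 27.3 TPM in sh-PURB and 21.2 TPM in sh-NC, and FJX1 was at 9.82 and 8.17 TPM in sh-PURB and 6.45 and 5.80 TPM in sh-NC. F3, tissue factor, went the other way at 2.09 and 1.54 TPM in sh-PURB against 3.90 and 3.10 TPM in sh-NC (limma adjusted p = 0.235).

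Among 26 regulators upstream of LATS, 14 had a log2 difference below 0. Their ratios of means included 0.631 for DCHS1, with overlapping groups, and 0.695 for RASSF1. Of the 12 above 0, the ratio was 2.86 for FAT4, 2.17 for the angiomotin AMOT and 2.12 for FRMD6. FRMD6, a FERM-domain protein that promotes Hippo signalling, was at 26.7 and 24.3 TPM in sh-PURB libraries and 12.1 and 12.0 TPM in sh-NC libraries. The control values were nearly equal and both sh-PURB values were more than 2 times as high, with a log2 difference of 1.02 (SE 0.12). FRMD6 did not pass in the fit of all genes (limma adjusted p = 0.0544) and rose among protein-coding genes alone (0.00883). It also passed with a filter at TPM 5 (limma adjusted p = 0.0330), with recomputed TPM (0.0450) and with robust moderation (0.0404). In the remaining settings with all 4 libraries FRMD6 did not pass, with limma adjusted p from 0.0502 (quantile normalization) to 0.185 (no filter). WWC1, the scaffold also called KIBRA, averaged 5.03 TPM in sh-PURB and 3.13 TPM in sh-NC (limma adjusted p = 0.210). FAT4, a giant cadherin, was at 1.47 and 2.87 TPM in sh-PURB against 0.830 and 0.686 TPM in sh-NC (limma adjusted p = 0.288).

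Over the list of 26 upstream regulators, 12 lay above 0 and 14 below with a median log2 difference of -0.02, and by limma 0 were called over all genes, while 7 had an unadjusted p under 0.05, each of them higher in sh-PURB (5.77% of all tested genes). This median ran from -0.12 without sh-PURB replicate 2 to 0.13 with recomputed TPM. Among protein-coding genes alone 2 were called higher, AJUBA and FRMD6 (1.33% of those genes). Of the 16 kinases and activators of the cascade 8 lay above 0 and 8 below, with a median of -0.01, which recomputed TPM moved to 0.14 and leaving out sh-NC replicate 1 to -0.16. By limma 0 were called over all genes, and 1 was lower at an unadjusted p under 0.05 (9.53% of all tested genes), MAP4K4 at 28.0 TPM in sh-PURB and 34.1 TPM in sh-NC. TNIK averaged 3.94 TPM in sh-PURB and 5.45 TPM in sh-NC, and TAOK2 5.43 TPM in sh-PURB and 6.66 TPM in sh-NC. Of the 8 tested genes for TEAD, VGLL, YAP and TAZ, 6 lay below 0 with a median of -0.23, where 41.6% of all tested genes lay above 0. This median was -0.08 with recomputed TPM, -0.15 after median-ratio rescaling and -0.08 when sh-NC replicate 2 was left out. Dropping sh-PURB replicate 1 gave -0.11, and dropping the other sh-PURB library gave -0.34.

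**Figure D5:**
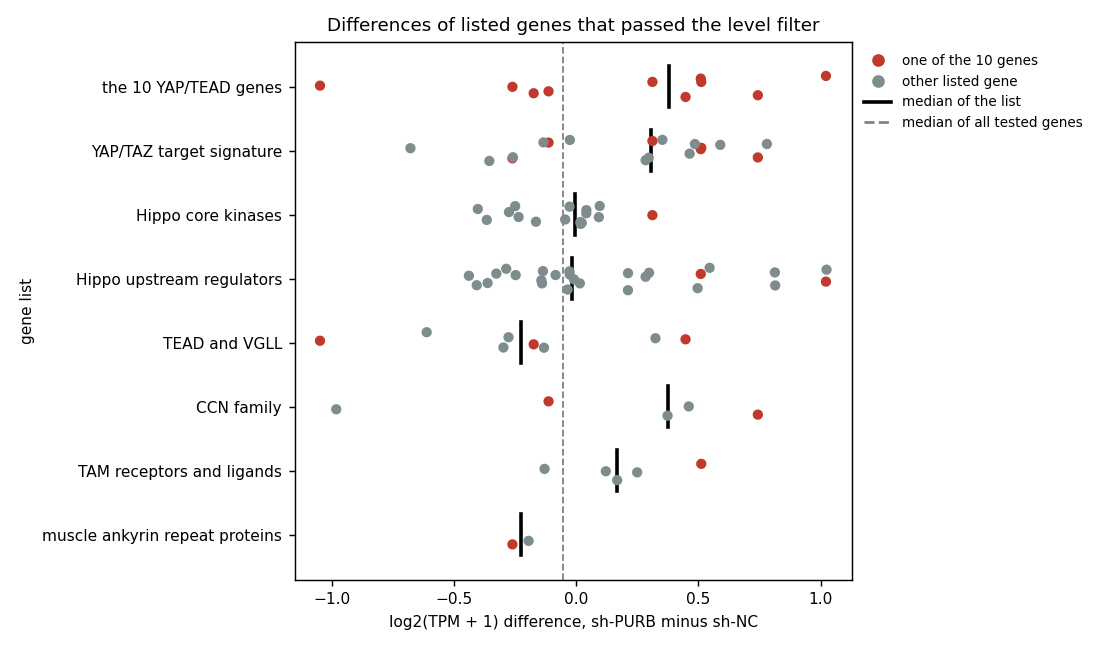
Difference in log2(TPM + 1), sh-PURB minus sh-NC, of each listed gene that passed the filter, with the list's median as a black bar and the median of all tested genes as a dashed line; red points are among the 10 genes. The kinase list has a median of -0.01, and the upstream regulators spread up to 1.02, where FRMD6 and AJUBA lie.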

How the data were processed

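Total RNA of U2OS cells, depleted of ribosomal RNA, was sequenced in 2 sh-PURB and 2 sh-NC libraries, grouped by their titles. The authors deposited TPM for each gene symbol; the submitters' processing notes list kallisto 0.44.0, bcl2fastq 2.19, DESeq2, sleuth, GRCm38 and GRCh38 without saying how each was used. How strand was handled, and the annotation release, are not given in the sources used here. TPM keeps no depth, so no counting interval is given. The columns sum to 977570 to 981061, and a row with a blank name (0.921% to 1.66%) was left out.

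Genes with at least 1 TPM in at least 2 libraries were compared as log2(TPM + 1) in limma 3.58.1 (R 4.3.3) with a trend of variance on level, and p-values were adjusted by Benjamini-Hochberg over all genes tested. This scale understates changes at low levels. Ratios divide mean TPM values. The fit was run on simulated data with known fold changes and independent noise in each library. The simulation held no library or scaling effects, so it does not bear on those. The protein-coding fit, of 11925 genes, rescales TPM to a common sum.

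The 10 genes and the lists were chosen with earlier results of these data known. Named genes were the 10, PURB, fixed relatives, and the 4 genes of smallest unadjusted p in each list. DCHS1 and RASSF1 were named outside this rule, among the upstream regulators below 0. Positions and overlaps came from GENCODE v29 (GRCh38), with 39442 of 39519 symbols matched, and promoters from RefSeq (GRCh38.p14). Figures used Python 3.11.15 and matplotlib 3.10.9.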

Additional observations from a re-analysis of the deposited data

How the results depend on the processing

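With 2 libraries a group, the fit had 2 residual degrees of freedom. The 41 genes called became 0 with a pseudocount of 0.1, with no filter and in limma without trend, 121 with a filter at TPM 5, 78 after median-ratio rescaling, 118 after quantile normalization, 174 with TPM recomputed without abundant and mitochondrial genes, 415 with protein-coding genes only and 125 with robust moderation, and 0 when any 1 library was left out. A pseudocount of 0.5 gave 40. Unadjusted limma p-values under 0.05 numbered 817 higher and 1338 lower with the pseudocount of 0.1, 1127 and 1904 with no filter, and 735 and 1354 without trend. Of the 10 genes, limma called 1 with the filter at TPM 5 (WWTR1), 1 with recomputed TPM (AJUBA) and 2 with protein-coding genes only, and 0 in the other settings. The PURB difference passed with protein-coding genes only (-0.91). With the replicate number as a block limma called 118 genes and 0 of the 10, and the limma adjusted p of CCN1 was 0.0847, against 0.258 without it. The deviations of same-numbered libraries correlated at 0.19 over genes. Same-numbered libraries also had neighbouring library names. There are only 2 such pairs, and the labels do not state whether they were prepared together.

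Apart from CCN2, each of the 10 genes kept its direction in each setting that tested it; LATS2 was not tested under the filter at TPM 5. CCN2 stood at 0.032 with recomputed TPM and, without 1 library, at -0.28 to 0.054. Among other named genes, not counting DCHS1, RASSF1 and FJX1, the sign turned for 8. AMOTL1 stood at 0.039 after median-ratio rescaling, 0.0063 after quantile normalization, 0.11 recomputed, 0.012 with protein-coding genes only and -0.18 to 0.11 without 1 library. WTIP stood at 0.049 recomputed and -0.17 to 0.0022 without 1 library, and TYRO3 at 0.0058 recomputed. Without 1 library STK3 ran from -0.22 to 0.42, LATS1 from -0.018 to 0.20, NF2 from -0.0019 to 0.42, CCN5 from -0.021 to 0.94 and GAS6 from -0.056 to 0.55. The cause was not tested.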
